A study of Mus musculus with 15 samples.

Results

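The 9 genes described here make up the steroid programme of the foetal Leydig cell: Scarb1 and Star, Cyp11a1 and Fdx1, Hsd3b1 and Cyp17a1, Insl3 and Lhcgr, and Nr5a1. They were chosen by name from what is known of steroid synthesis, with earlier results of these data known, and they are 9 of the 54838 genes in the count tables. Their reads were followed in gonocytes, the germ cells of the foetal testis, sorted at E16.5 from control and Tex15-/- embryos. TEX15 is a germline protein that associates with MIWI2, a PIWI protein that directs DNA methylation of transposons in these cells.

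The control libraries (n = 3) came from Tex15+/- embryos and the knockout libraries (n = 3) from Tex15-/- embryos. All of them also carried the Miwi2tdTom/+ reporter, on a mixed B6CBAF1/Crl; C57BL/6N background, and cells were sorted by tdTomato alone, with DAPI as the only other dye named. The Tex15- allele is an edited exon 5, and the line descends from 1 founder. Small RNA of whole E16.5 foetal testes, 6 testes per library, was sequenced separately from 3 Tex15+/- control and 3 Tex15-/- samples. The study names no reporter for these. The sources used here do not say whether a gonocyte library is 1 embryo or a pool, so that p-values measure only the spread between these libraries, which may be technical.

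Leydig cells lie between the testis cords and make the androgens that masculinise the embryo. Cholesterol enters the cell and then the mitochondrion, its side chain is cut off, and dehydrogenase and lyase steps follow. In the foetal mouse testis, Leydig cells pass androstenedione to Sertoli cells, which finish the synthesis of testosterone. They also secrete INSL3, a hormone needed for the descent of the testis.

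Gene reads ranged from 4893265 to 5697020 per library, and 16311 genes passed the filter on low counts. Tex15 itself had 8183, 8315 and 9082 reads in control replicates 1, 2 and 3. It had 2338, 1267 and 1310 reads in Tex15-/- replicates 1, 2 and 3, so that every library followed its label (log2 fold change −2.35, adjusted p = 0.0112, edgeR's quasi-likelihood test). The 12 germ cell markers summed to between 4066 and 4370 CPM (counts per 1000000 gene reads, with TMM scaling) in controls and to between 4047 and 4285 CPM in Tex15-/- libraries. Their most abundant members were the piRNA factor Tdrd9, the RNA helicase Ddx4 and the PIWI gene Piwil2, with log2 fold changes of 0.07, −0.06 and 0.02 and adjusted p of 0.833, 0.842 and 0.954. Of 11 germ cell markers tested, 2 were lower at an unadjusted p under 0.05, against 3.15% of all genes tested. They were Dazl (log2 fold change −0.28) and Dppa3 (−0.64), which were named after their values were seen and had adjusted p of 0.471 and 0.521. Tex15-/- replicates 2 and 3 stood apart from the other 4 libraries in most of the 9 genes and in most lists of somatic markers, as described below. Results are given with and without them.

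The 9 genes together took 0.00591%, 0.0114% and 0.00741% of gene reads in control replicates 1 to 3. In Tex15-/- replicates 1 to 3 they took 0.00768%, 0.0725% and 0.0246%. The 95% Wilson intervals were 0.00695% to 0.00849% in Tex15-/- replicate 1 and 0.0105% to 0.0124% in control replicate 2, so that this knockout library lay below the highest control. The intervals of Tex15-/- replicate 2 (0.0704% to 0.0748%) and replicate 3 (0.0233% to 0.0259%) lay above all controls. These intervals cover counting error only. The summed CPM was 81.2 ± 26.4 in controls and 356 ± 347 in Tex15-/- gonocytes (mean ± SD, n = 3 each), so that the spread among knockout libraries exceeded the difference of 275 CPM. In sorted bulk RNA, more cells of a type and more RNA per cell cannot be told apart.

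**Figure D1:**
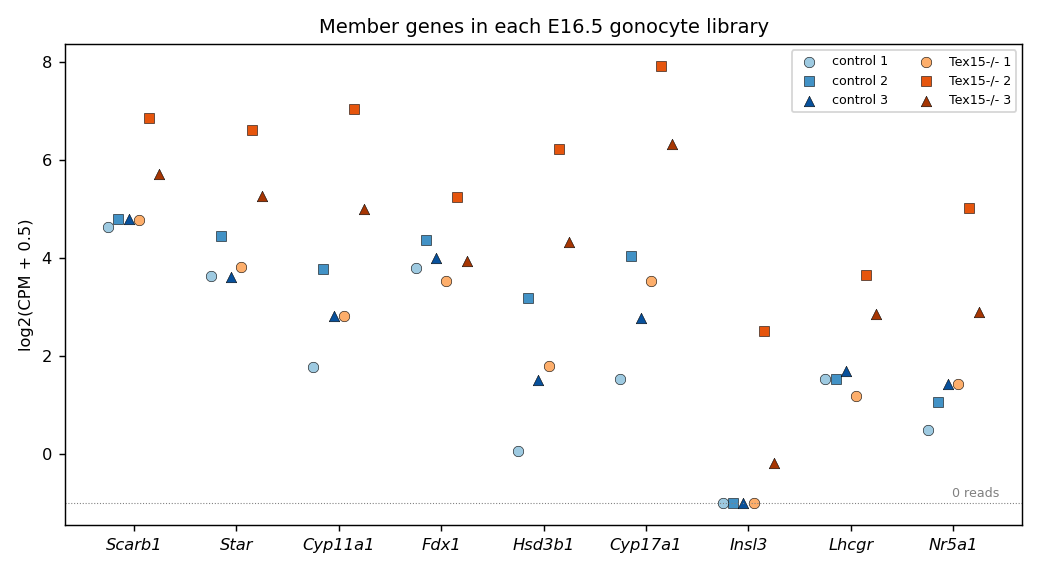
Level of each of the 9 genes, as log2(CPM + 0.5), in the 3 control libraries (blue) and the 3 Tex15-/- libraries (orange), 1 point per library; the dotted line marks 0 reads. Tex15-/- replicate 2 was the highest library for all 9 genes, and Tex15-/- replicate 1 lay near the controls.

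None of the 8 genes that passed the filter reached an adjusted p under 0.01 in edgeR, nor in DESeq2. None of the 16311 genes tested in edgeR did (background 0.0%). At an unadjusted p under 0.05, 7 of the 8 were higher in Tex15-/- gonocytes, against 6.05% of all genes tested. Their median log2 fold change was 2.31, beside a median of 0.00 over all genes, and 7 of the 8 lay above 1, against 3.68% of all genes. Tex15-/- replicate 2 was the highest of the 6 libraries for all 9, against 29.2% of all genes tested. Groups did not overlap for 1 of the 9, Nr5a1, against 6.53% of all genes tested that were higher without overlap. DESeq2 on all 6 libraries gave 14 calls, of which 10 were higher (background 0.0563%), and none was one of the 9.

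Scarb1 and Star bring cholesterol in. Scarb1 (ENSMUSG00000037936, GRCm38 chromosome 5, 125277087 to 125341094, minus strand) encodes the receptor for high-density lipoprotein, from which steroidogenic cells take up cholesterol esters. It had 134, 137 and 151 reads in controls, and 136, 643 and 275 reads in Tex15-/- replicates 1, 2 and 3. These were 24.4, 27.1 and 27.3 CPM against 26.9, 115.7 and 51.8 CPM. The controls lay close together, the first knockout library lay among them, and the others lay above. In edgeR the log2 fold change was 1.30 ± 0.40 (SE), with an adjusted p of 0.460.

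Star (ENSMUSG00000031574, GRCm38 chromosome 8, 25806555 to 25815982, plus strand) encodes the protein that moves cholesterol to the inner mitochondrial membrane, the step that sets the rate of steroid synthesis. Its reads were 65, 108 and 65 in controls. They were 69, 538 and 200 in Tex15-/- replicates 1 to 3. Replicate 1 again lay within the control range, while replicate 2 reached 96.8 CPM against a highest control of 21.4 CPM. Its log2 fold change was 1.72 ± 0.55, with an adjusted p of 0.460.

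Cyp11a1 and Fdx1 act together in the mitochondrion. Cyp11a1 (ENSMUSG00000032323, GRCm38 chromosome 9, 58006411 to 58027023, plus strand) encodes the side-chain cleavage enzyme that makes pregnenolone. It had 16, 67 and 36 reads in controls (2.92, 13.3 and 6.52 CPM). In Tex15-/- replicates 1 to 3 it had 33, 723 and 168 reads (6.53, 130.15 and 31.6 CPM). The controls differed more among themselves than for Scarb1, and the knockout libraries differed more still. The log2 fold change was 2.90 ± 0.85, with an adjusted p of 0.460 in edgeR. Of the exon bases of Cyp11a1, 145 are shared with the gene model Gm17322 on the same strand, which had between 3 and 8 reads per library.

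Fdx1 (ENSMUSG00000032051, GRCm38 chromosome 9, 51943306 to 51963556, minus strand) encodes ferredoxin, which hands electrons to mitochondrial P450 enzymes in many cell types. Its 73, 101 and 85 control reads overlapped the 56, 207 and 79 reads of Tex15-/- replicates 1 to 3. It was the only one of the 8 genes with an unadjusted p over 0.05 (0.356), with a log2 fold change of 0.38 ± 0.39. Only replicate 2, at 37.3 CPM, lay above the highest control of 20 CPM, and without that library the log2 fold change was −0.31 (adjusted p = 0.958).

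Hsd3b1 and Cyp17a1 carry pregnenolone on to androgens. Hsd3b1 (ENSMUSG00000027871, GRCm38 chromosome 3, 98852194 to 98859794, minus strand) encodes a 3-beta-hydroxysteroid dehydrogenase. Its control reads were 3, 43 and 13. Its reads in Tex15-/- replicates 1 to 3 were 15, 410 and 104. Control replicate 2 thus lay above Tex15-/- replicate 1, and the higher knockout libraries reached 73.8 and 19.6 CPM. Its log2 fold change was 3.09 ± 0.99, with an adjusted p of 0.460. Reads that match several near-identical paralogs may be missing from the count of each, and this was not tested. Hsd3b2, Hsd3b3 and Hsd3b6, named after their values were seen, had at most 4 reads in any library, which does not measure such a loss.

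Cyp17a1 (ENSMUSG00000003555, GRCm38 chromosome 19, 46667165 to 46673172, minus strand) encodes the 17-alpha-hydroxylase and 17,20-lyase that commits steroids to androgens, and it had the largest fold change of the 8. It had 13, 81 and 35 reads in controls (2.37, 16.04 and 6.34 CPM). In Tex15-/- replicates 1 to 3 it had 56, 1340 and 421 reads (11.1, 241 and 79.3 CPM). Replicate 1 lay between the second and the third control, so that the groups overlapped. The mean was 8.25 ± 7.03 CPM in controls and 110.5 ± 118 CPM in Tex15-/- gonocytes (SD, n = 3 each). The log2 fold change was 3.76 ± 0.91, with an unadjusted p of 0.0017 and an adjusted p of 0.460 in edgeR.

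Insl3 (ENSMUSG00000079019, GRCm38 chromosome 8, 71689214 to 71690575, plus strand) encodes the Leydig cell hormone of testis descent. It had 0 reads in every control and in Tex15-/- replicate 1, 29 reads in replicate 2 and 2 reads in replicate 3. The 5.22 CPM of replicate 2 were at least 8.79-fold higher than the highest control limit, set at 3 reads per library or 0.594 CPM. It did not pass the filter on low counts and was not tested with the others. Of its 623 exon bases, 404 are shared with the gene model of Jak3 on the same strand, and reads that fall on both genes count for neither.

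Lhcgr (ENSMUSG00000024107, GRCm38 chromosome 17, 88716481 to 88791990, minus strand) encodes the receptor for luteinising hormone, through which the pituitary drives Leydig cells. It had 13, 12 and 15 reads in controls, and 9, 67 and 36 reads in Tex15-/- replicates 1 to 3. Replicate 1 was the lowest of all 6 libraries and replicate 2 the highest. Its log2 fold change was 1.46 ± 0.58, with an adjusted p of 0.493 in edgeR.

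Nr5a1 (ENSMUSG00000026751, GRCm38 chromosome 2, 38692656 to 38714542, minus strand) encodes steroidogenic factor 1, a nuclear receptor that turns on most steroidogenic genes and is also made by Sertoli cells. It had 5, 8 and 12 reads in controls (0.912, 1.58 and 2.17 CPM). In Tex15-/- replicates 1 to 3 it had 11, 176 and 37 reads (2.18, 31.7 and 6.97 CPM). The groups did not overlap, but replicate 1 and the highest control were equal to 2 digits. The log2 fold change was 3.11 ± 0.84, with an adjusted p of 0.460. The exact two-sided permutation p was 0.1, the smallest that 3 libraries against 3 can give. For the other 8 genes that p lay between 0.2 and 0.9.

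The result turned on which knockout libraries entered. Without Tex15-/- replicate 1, 6 of the 8 genes passed an adjusted p under 0.01 in edgeR, all higher, against 1.69% of the 17520 genes tested. The 6 were Scarb1 (adjusted p = 0.00206), Star (0.00254), Cyp11a1 (0.00219), Hsd3b1 (0.00461), Cyp17a1 (4.8e-04) and Nr5a1 (0.00265). Lhcgr had an adjusted p of 0.0137 and Fdx1 of 0.216. DESeq2 without the same library called 3 of them, Scarb1, Cyp17a1 and Nr5a1, against a background of 2.4%.

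Without Tex15-/- replicate 2, none of the 8 passed (background 0.00576%), and the log2 fold changes were 2.48 for Cyp17a1, 1.59 for Hsd3b1, 1.55 for Nr5a1 and 1.35 for Cyp11a1. Without replicate 3 they stayed between 0.59 for Fdx1 and 3.96 for Cyp17a1, and none passed either. With Tex15-/- replicate 1 as the only knockout library, assumed to vary as the controls did, 5 of the 8 log2 fold changes were below 0. They ran from −0.54 for Fdx1 to 0.48 for Nr5a1. With no filter on low counts, 7 of the 9 were called, Insl3 among them and Fdx1 and Lhcgr not, against 1.05% of the 42446 genes then tested. In that fit Cyp17a1 had a log2 fold change of 3.81 with an SE of 0.18, against an SE of 0.91 with the filter. These calls thus take little account of the spread between the knockout libraries. Leaving out single controls left all 8 fold changes above 0 and no gene called.

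**Figure D2:**
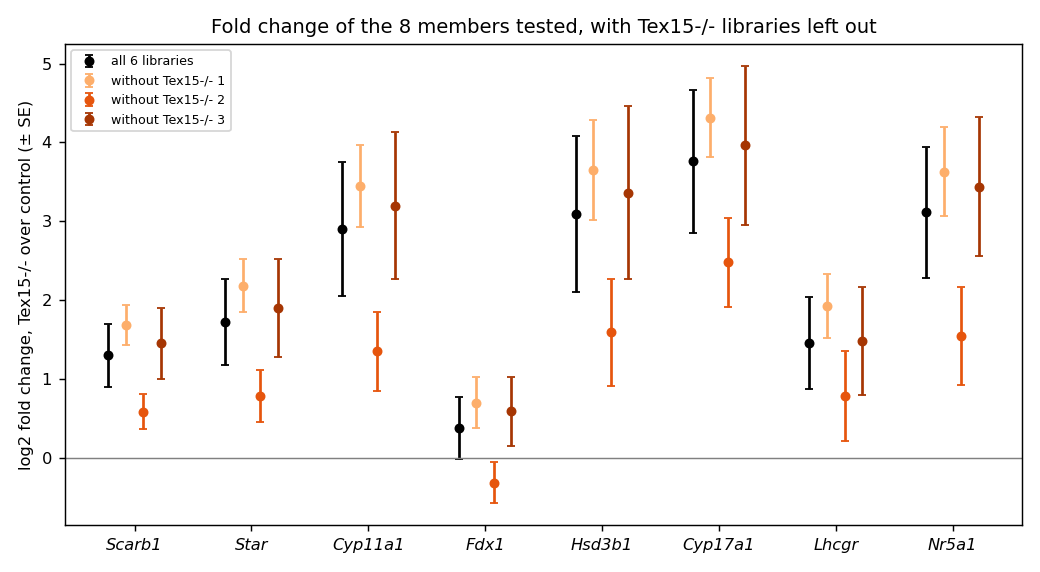
Log2 fold change of the 8 genes tested, Tex15-/- over control, with bars of 1 SE from edgeR, for all 6 libraries and with each Tex15-/- library left out. Without replicate 1 the fold changes were higher with smaller errors, and without replicate 2 they were the lowest of the settings drawn, with Fdx1 below 0.

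Levels per exon length (reads per kilobase and library size, RPKM) put the 9 genes on 1 approximate scale. The length joins the exons of all annotated transcript models of a gene. For Insl3 it holds 404 of 623 bases shared with Jak3, where reads count for neither gene. Its RPKM and its place in the order may therefore be too low. In controls, Fdx1 was highest at 5.23 ± 1.1 RPKM (SD, n = 3), followed by Star at 3.65 ± 1.34, Scarb1 at 3.09 ± 0.19, Cyp17a1 at 2.98 ± 2.54, Hsd3b1 at 2.05 ± 2.25 and Cyp11a1 at 1.58 ± 1.09. Fdx1 lay above Star in each control library, although their ranges of 4.29 to 6.44 and 2.86 to 5.20 RPKM overlapped. The other neighbours in this order did not differ beyond their spread. Nr5a1 (0.367 ± 0.149 RPKM) and Lhcgr (0.325 ± 0.026 RPKM) lay lower still and also within their spread of each other, and Insl3 had no reads. In Tex15-/- replicate 2 the order was another: Cyp17a1 led at 87.1 RPKM, then Hsd3b1 at 39.8, Cyp11a1 at 27.1, Star at 23.5, Scarb1 at 13.6, Fdx1 at 12.0, Insl3 at 8.38, Nr5a1 at 7.47 and Lhcgr at 1.58. Cyp17a1 also led in replicate 3 at 28.6 RPKM and in replicate 1 at 4.004 RPKM.

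The genes most restricted to steroid-making cells, Cyp17a1, Cyp11a1, Hsd3b1 and Insl3, took a larger part of the reads of the 9 in some libraries than in others. Their part was 9.94%, 34.3% and 20.4% in control replicates 1 to 3, and 27.0%, 60.5% and 52.6% in Tex15-/- replicates 1 to 3. Summed, these 4 genes stood at 5.83, 37.8 and 15.2 CPM in controls and at 20.6, 450.4 and 130.9 CPM in Tex15-/- gonocytes. The control libraries themselves therefore differed: control replicate 2 exceeded replicate 1 by 6.48-fold (95% counting interval 4.44 to 9.74). Between the same 2 controls, Hsd3b1 differed 15.6-fold (4.98 to 78.4), Cyp17a1 6.77-fold, Cyp11a1 4.55-fold, Star 1.80-fold (1.31 to 2.49) and Fdx1 1.502-fold (1.101 to 2.06). The intervals of Scarb1 at 1.11-fold (0.869 to 1.42), Lhcgr at 1.00-fold (0.418 to 2.38) and Nr5a1 at 1.74-fold (0.501 to 6.75) held 1. As sums, the marker lists differed less between them, 1.08-fold for the other foetal Leydig markers, 1.07-fold for Sertoli markers and 1.11-fold for interstitial markers. Single markers of low count differed more, such as the Sertoli ligand Dhh, named after its values were seen, with 19 against 4 reads (5.16-fold, 1.71 to 20.8).

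Markers of other somatic cells moved with the same libraries. The 6 other foetal Leydig markers summed to between 89.6 and 100.8 CPM in controls, and to 93.04, 326 and 133.9 CPM in Tex15-/- replicates 1 to 3. The 12 interstitial and mesenchymal markers summed to between 132 and 147 CPM in controls and to 131, 2066 and 532 CPM in Tex15-/- libraries. The 11 Sertoli markers summed to between 47.6 and 51.1 CPM in controls and to 40.4, 206 and 169 CPM in Tex15-/- libraries. In each of these lists replicate 1 lay below the control range, apart from the Leydig list, where it lay inside it.

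Peritubular myoid markers (5 genes) ran from 31.1 to 37.2 CPM in controls, and stood at 31.5, 138 and 60.3 CPM in Tex15-/- replicates 1 to 3. Endothelial markers (8 genes) ran from 80.9 to 93.1 CPM in controls, and stood at 77.4, 273 and 89.1 CPM. Macrophage and blood markers (11 genes) ran from 24.3 to 31.3 CPM, and stood at 21.6, 67.9 and 78.4 CPM. Replicate 2 was thus above the controls in all 6 somatic lists and replicate 3 in 5 of them, with the endothelial list inside the control range. No listed marker had 0 reads in all libraries. None of the markers tested in edgeR passed an adjusted p under 0.05. DESeq2 gave adjusted p of 0.0224 for Amh, which edgeR's filter left out, and of 0.0227 for Mro, Sertoli markers named after their values were seen. Amh had 1, 1 and 5 reads in controls against 9, 157 and 122 in Tex15-/- replicates 1 to 3. Mro had 4, 9 and 2 against 15, 66 and 36. Both could be tested only through their reads in knockout libraries, so that these p-values are a description. The part of these cells in the values of the 9 genes was not tested.

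**Figure D3:**
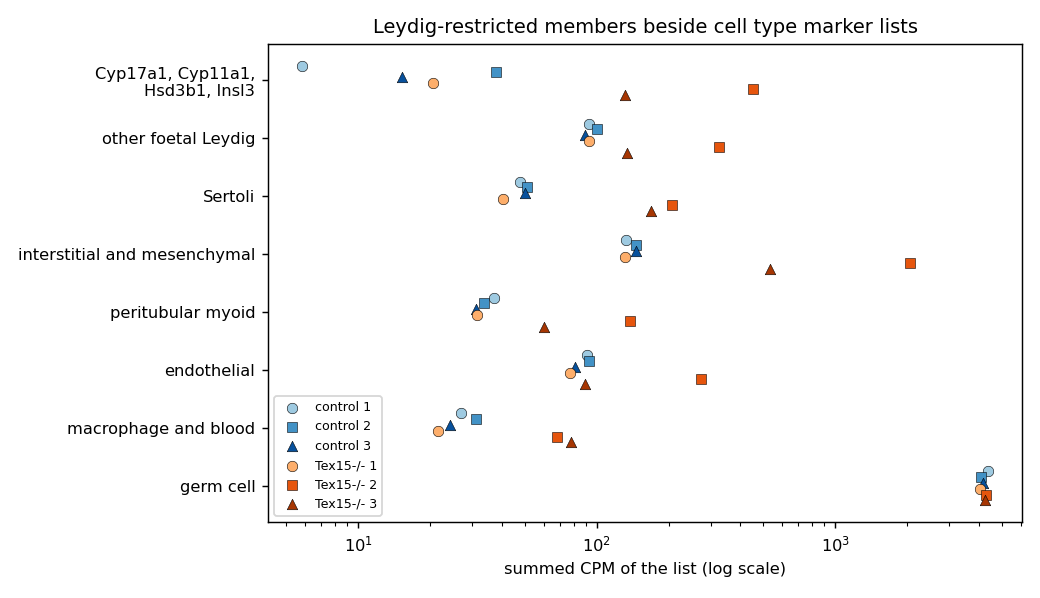
Summed CPM (log scale) of the 4 most restricted genes and of 7 lists of cell type markers in each library, controls in blue and Tex15-/- in orange. Tex15-/- replicate 2 lay above every control in the somatic lists, and all 6 libraries lay together in the germ cell list.

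The most abundant markers of each list did not all follow both libraries. Among other foetal Leydig genes, Dlk1, a growth regulator of the foetal interstitium, had 240, 190 and 140 reads in controls against 201, 801 and 305 in Tex15-/- replicates 1 to 3. Gramd1b, a cholesterol transporter, had 187, 183 and 236 against 182, 365 and 222 reads, and Thbs2, a matrix protein, had 53, 71 and 68 against 54, 195 and 70. In CPM, replicate 3 lay within the control range for Gramd1b and Thbs2. Without Tex15-/- replicate 1, Dlk1 passed (log2 fold change 1.52, adjusted p = 0.00938), and Gramd1b and Thbs2 did not (0.122 and 0.0945).

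Among Sertoli markers, the secreted chaperone Clu had 188, 163 and 203 reads against 142, 542 and 481, the inhibin subunit Inhbb 29, 30 and 20 against 10, 101 and 54, and the sex-determining factor Sox9 21, 16 and 20 against 16, 83 and 65. Among interstitial markers, the hedgehog receptor Ptch1 had 266, 253 and 336 reads against 250, 542 and 254, the collagen gene Col1a1 147, 150 and 125 against 115, 2108 and 521, and the growth factor receptor Pdgfrb 91, 75 and 75 against 73, 323 and 205. In CPM, replicate 3 lay below all controls for Ptch1. Of the 5 Sertoli and 10 interstitial markers tested with all 6 libraries, 3 and 9 passed without Tex15-/- replicate 1, all higher, against 1.69% of all genes, among them Clu, Sox9, Col1a1 and Pdgfrb. Markers that entered only the fit without that library are not counted.

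In the 3 other somatic lists the leading genes were Myh11, Des and Cnn1, of smooth muscle, Flt1, Cdh5 and Pecam1, of endothelium, and Alas2, Csf1r and Adgre1, of red cells and macrophages. Tex15-/- replicate 2 was the highest library for all 3 muscle and all 3 endothelial genes, with 330 reads of Myh11 against at most 93 in a control and 488 reads of Cdh5 against at most 123. Replicate 3 lay within the control range for Flt1 and below it for Cdh5 and Pecam1, in CPM. Alas2 had between 77 and 103 reads in controls and between 67 and 88 in Tex15-/- libraries, while Csf1r had at most 33 reads in a control against 93 in replicate 2 and 106 in replicate 3.

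Tex15-/- replicates 2 and 3 did not carry the markers in 1 ratio. Tex15-/- replicate 2 exceeded replicate 3 by 3.44-fold in the 4 restricted genes (95% counting interval 3.16 to 3.75). Single genes ran from 1.78-fold for Lhcgr (1.17 to 2.75) to 4.55-fold for Nr5a1 (3.17 to 6.67), leaving aside Insl3, for which 29 against 2 reads gave 13.9-fold with an interval of 3.51 to 119.8. Cyp17a1 stood at 3.04-fold (2.72 to 3.40) and Cyp11a1 at 4.11-fold (3.47 to 4.89), so that their counting intervals did not overlap. These intervals leave out all other spread between libraries, so that the 2 genes may not differ beyond it.

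Between the same 2 libraries the interstitial list differed 3.88-fold (3.73 to 4.05) and the endothelial list 3.07-fold (2.76 to 3.41). The Sertoli list differed only 1.22-fold (1.12 to 1.34), the macrophage and blood list was lower in replicate 2 at 0.866-fold (0.751 to 0.998), and the germ cell list stood at 1.01-fold (0.995 to 1.03). The other foetal Leydig list differed 2.43-fold (2.23 to 2.66) and the peritubular myoid list 2.29-fold (2.01 to 2.62), both below the interval of the 4 restricted genes. These ratios include the level that controls also had. For the other Leydig list that was 89.6 to 100.8 CPM, against 133.9 CPM in replicate 3. For the restricted genes it was 5.83 to 37.8 CPM, against 130.9 CPM. The ratios thus do not rank the lists by their rise above controls. Between other pairs of libraries the lists stood in another order. From Tex15-/- replicate 1 to replicate 3, the restricted genes differed 6.36-fold, the Sertoli list 4.17-fold, the interstitial list 4.05-fold and the endothelial list 1.15-fold. These intervals compare 2 libraries and not 2 genotypes.

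**Figure D4:**
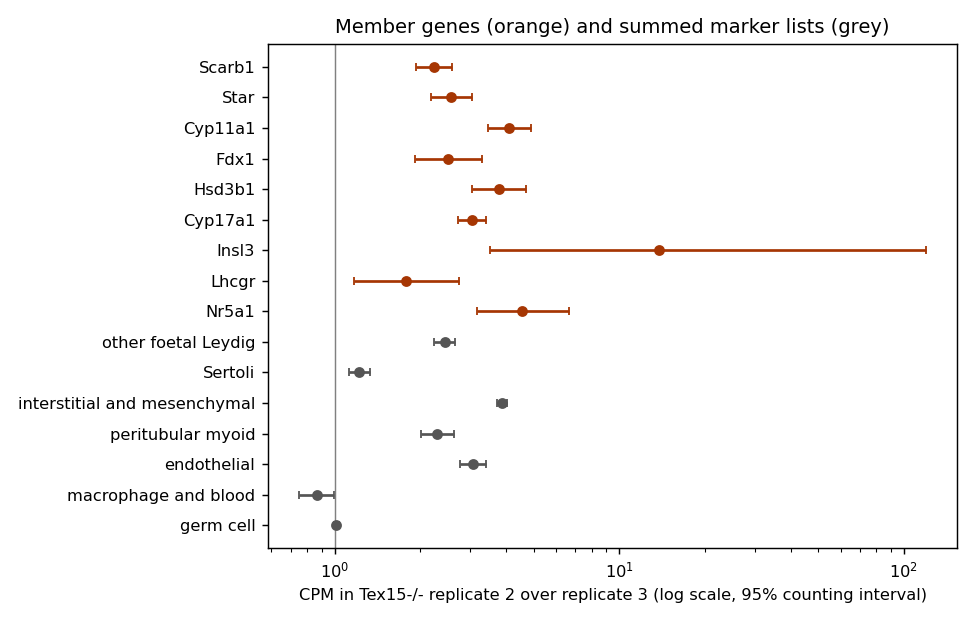
Ratio of CPM in Tex15-/- replicate 2 to that in replicate 3 (log scale), with 95% counting intervals, for each of the 9 genes (orange) and for summed marker lists (grey); the line marks equal levels. The 9 genes lay between 1.78 and 13.9, the interstitial list at 3.88, the endothelial list at 3.07, the other foetal Leydig and myoid lists at 2.43 and 2.29, and the Sertoli, blood and germ cell lists between 0.866 and 1.22.

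The wider pathway was read from 6 lists with 73 distinct genes, of which 60 passed the filter. None was called in edgeR, 14 were higher and 0 lower at an unadjusted p under 0.05, against 6.05% of all genes higher, and the median log2 fold change was 0.13. Of these 60, 5 passed without Tex15-/- replicate 1, all higher, against 1.69% of all genes. With DESeq2 on all 6 libraries none reached an adjusted p under 0.01, and the lowest were those of Hsd17b3 (0.0247) and Gata4 (0.0311), described below. Hsd17b3 had at most 3 reads in a control and could be tested only through its reads in knockout libraries, so that its p is a description. Cholesterol supply, with the genes of the sterol synthesis route and of lipoprotein uptake, held 22 genes with a median log2 fold change of 0.12, and 3 were higher at an unadjusted p under 0.05. Its summed level ran from 867 to 887 CPM in controls and from 873 to 1045 CPM in Tex15-/- libraries.

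Mitochondrial import and electron transfer held 8 genes with a median log2 fold change of 0.19, and 3 were higher at an unadjusted p under 0.05, against 6.05% of all genes. Genes of this and the following lists are named after their values were seen. Fdxr, the reductase that feeds Fdx1, had 86, 87 and 105 reads in controls and 106, 221 and 139 in Tex15-/- replicates 1 to 3. Por, the reductase that serves Cyp17a1, had 462, 353 and 372 reads against 371, 364 and 426. The highest control and the lowest knockout library were 1 read apart for Fdxr, and the groups overlapped for Por, with log2 fold changes of 0.74 and −0.02 and adjusted p of 0.460 and 0.976 in edgeR.

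Of 15 other steroid enzymes, 5 passed the filter, with a median log2 fold change of 0.28 and none at an unadjusted p under 0.05. Hsd17b3, which turns androstenedione into testosterone and in the foetal mouse testis is a Sertoli cell enzyme, had 0, 2 and 3 reads in controls and 5, 48 and 32 reads in Tex15-/- replicates 1 to 3. It did not pass edgeR's filter with all 6 libraries, and no edgeR test of it is given. Gonadotropin and cAMP signalling held 11 genes, 9 of them tested, with a median of 0.03. At an unadjusted p under 0.05, 1 was higher, against 6.05% of all genes. This was Prkar2b, a regulatory subunit of protein kinase A, with 384, 437 and 394 reads in controls against 438, 960 and 648 (log2 fold change 0.74, adjusted p = 0.460 in edgeR, and 0.00256 without Tex15-/- replicate 1). The receptors for steroid hormones and INSL3 held 6 genes with a median of 0.01. Of them, 1 was higher at an unadjusted p under 0.05, against the same 6.05% of all genes. The INSL3 receptor gene Rxfp2 had 39, 20 and 37 reads in controls against 33, 23 and 36.

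The transcription factors of steroidogenic cells were the list that stood highest, with a median log2 fold change of 1.23 over 10 tested and 6 higher at an unadjusted p under 0.05, against 6.05% of all genes. Gata4, made in Leydig and Sertoli cells, had 34, 25 and 39 reads in controls and 32, 227 and 107 in Tex15-/- replicates 1 to 3. Nr2f2, an orphan receptor of Leydig progenitors that also stands in the interstitial list, had 10, 22 and 9 against 6, 667 and 107. Without Tex15-/- replicate 1, 4 of the 10 passed, all higher, against 1.69% of all genes. Among them were Gata4, Lhx9 and Nr2f2 with log2 fold changes of 2.34, 2.41 and 4.78.

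The profile of the 4 restricted genes over the 6 libraries was set beside that of 16139 genes with at least 60 reads in all. Of the members themselves, Cyp17a1, Hsd3b1 and Cyp11a1 are parts of that sum. Star followed it with a Pearson r of 0.971, Nr5a1 with 0.941, Scarb1 with 0.937, Lhcgr with 0.909 and Fdx1 with 0.777. Outside the members, the 10 genes most like it were Rnpep, Pyroxd2, Akr1b10, Ptges, Rassf5, Paqr4, Cdh11, Psmd6, Mtpn and Prc1, with r from 1.00 to 0.987. Only Cdh11, a cadherin of mesenchymal cells, had a spread like theirs, with 2, 22 and 5 reads in controls and 8, 430 and 106 in Tex15-/- replicates 1 to 3. These correlations over 6 libraries, of which Tex15-/- replicates 2 and 3 held the highest levels of all 4 genes, are a description.

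The proximal promoters were searched because most of the 9 genes were high in the same libraries and because the protein of Nr5a1 binds DNA upstream of many of them. RefSeq promoter windows (GRCm38.p6) of 250 bases before the start were at hand for 5 of the genes, Cyp11a1, Fdx1, Hsd3b1, Insl3 and Lhcgr, in 6 windows. The letters AAGGTCA and AAGGCCA, on either strand, were in none of them, against 4.08% and 5.24% of 32851 windows. TCAAGG, whose last letters can overlap the first letters of the other motifs, was searched on both strands after the sequences had been read. It was in 4 of the 6 windows, each of another gene, against 12.5% of all windows, a count that the choice after reading leaves as a description. Distances are counted from the RefSeq start, which for Insl3, Fdx1 and Lhcgr differs from the GENCODE gene ends given above. The sites, with TCAAGG in capitals and 20 bases on each side, lie on chromosome 3 for Hsd3b1 (98859897 to 98859942, plus strand printed, 128 bases before the start). They lie on chromosome 8 for Insl3 (71689094 to 71689139, plus strand, 138 bases before), on chromosome 9 for the nearer of 2 sites of Fdx1 (51963651 to 51963696, minus strand, 74 bases before) and on chromosome 17 for Lhcgr (88792108 to 88792153, minus strand, 119 bases before). A match of letters is a description and not a binding site.
Hsd3b1: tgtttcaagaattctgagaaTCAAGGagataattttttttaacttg
Insl3: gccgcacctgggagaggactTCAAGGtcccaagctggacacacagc
Fdx1: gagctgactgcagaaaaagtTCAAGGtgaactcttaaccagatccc
Lhcgr: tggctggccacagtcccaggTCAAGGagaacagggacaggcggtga

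Small RNA was read for the same genes in whole testes, in which Leydig cells were not sorted away. Reads of this length do not measure mRNA, so that their levels cannot be set against those of the gonocyte libraries. Reads of 18 to 32 nt in the gene class that matched only 1 gene's transcripts in sense totalled 202 for Scarb1, 86 for Star, 49 for Fdx1, 40 for Cyp17a1, 25 for Nr5a1 and 24 for Cyp11a1. Hsd3b1 and Lhcgr had 7 each and Insl3 had 4. Of these reads, pooled over all libraries, 226 came from control replicate 2, the deepest, and 35 to 56 from each of the others. The totals therefore weigh that library most. Summed over the 9 genes the reads averaged 2.94 ± 0.34 RPM (reads scaled like CPM to all 18 to 32 nt reads) in the 3 control libraries, while the 3 Tex15-/- libraries averaged 2.5 ± 0.70 RPM (± SD). The difference of −0.44 RPM lay within the spread of the knockout libraries.

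Scarb1 alone was well covered, with values of 1.67, 1.22 and 1.48 RPM for the controls. The Tex15-/- testes gave 0.596, 1.61 and 0.958 RPM (exact permutation p = 0.3). Of its reads, 93.6% were 25 to 30 nt long and 81.7% began with T. In the whole gene class, between 55.2% and 65.2% of reads had that length and between 63.2% and 67.8% began with T, depending on the library. Only 26.2% of the Scarb1 reads lay in its protein-coding transcripts, and the other 149 lay in its other transcript models. The most frequent sequence, of 30 nt, is shown because it is one of these, with its first base in capitals. It had 14 reads in 5 libraries and lies on chromosome 5 from 125326608 to 125326637 (GRCm38, minus strand), within an exon of a Scarb1 transcript annotated as a retained intron.
Scarb1: Tgtgatctgttcaaggccatagttggtagc

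The small RNA level of Cyp11a1 was 0.363, 0.144 and 0.148 RPM for the controls, against 0.0596, 0 and 0.144 RPM for the Tex15-/- testes, on 24 reads in all. That of Fdx1 was 0.290, 0.217 and 0.346 RPM for the controls, against 0.417, 0.447 and 0.383 RPM, on 49 reads in all. The exact two-sided permutation p was 0.1 for each, the smallest possible with 3 libraries against 3, and for Cyp11a1 the lowest control (12 reads) and the highest Tex15-/- library (3 reads) were equal to 3 digits. Cyp17a1 had the largest fold change in gonocyte RNA, which is another kind of molecule. Its small RNA averaged 0.319 ± 0.166 RPM for the controls and 0.143 ± 0.126 RPM for the knockouts (exact permutation p = 0.2).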

How the data were processed

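Per the labels and the study's methods, the authors mapped gonocyte reads to GRCm38 (HISAT2), counted them by gene (HTSeq 0.11.1) and deposited the raw counts. The kit was stranded, and the strand setting of the counting is not given in the sources used here. Of the table totals, 61.3% to 67.3% were reads not assigned to a gene and were left out. This share was 64.6%, 65.2% and 64.3% in control replicates 1 to 3, and 67.3%, 61.3% and 62.9% in Tex15-/- replicates 1 to 3. Genes with a read numbered 31775, 30770 and 32592 in these controls, against 32972, 28056 and 29770 in these Tex15-/- libraries. Tex15-/- replicates 2 and 3 were thus the lowest libraries in both. Whether this bears on the gene levels was not tested. Symbols, places and exon lengths came from GENCODE vM21 (99.8% of identifiers matched). For small RNA the authors deposited counts per distinct sequence with an annotation class, after cutadapt 1.8.1 and Bowtie 1.2.1.1.

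Counts were compared with edgeR 4.0.16 (R 4.3.3), TMM and filterByExpr (minimum count 10, minimum total 15). A call was a Benjamini-Hochberg adjusted p under 0.01 over all genes tested. CPM use TMM library sizes. DESeq2 1.42.0, other filters and scalings, a replicate block and left-out libraries were alternatives. Likeness used log2(CPM + 1). The scripts were tested on simulated data.

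The class tables pair no gene name with a sequence, so sequences were matched exactly, in sense, to GENCODE transcripts and kept if they matched 1 gene; this assignment, the fit without Tex15-/- replicates 2 and 3, DESeq2 with libraries left out, and the motif TCAAGG were chosen after the data were seen. Small RNA libraries held 11184854 to 83102785 reads of 18 to 32 nt. The 9 genes and all lists were chosen with earlier results of these data known. Genes named by rule were the 9, Tex15, the 3 most abundant in controls of each marker list and the 10 most alike. The retrotransposon counts and the tables of testes after birth were not used. Some genes of the lists are counted but not reported by name here.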

Additional observations from a re-analysis of the deposited data

How the results depend on the processing

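The count of called genes among the 9 was 0 of 8 tested and stayed 0 of the 5 left by a filter of at least 10 counts in every library, which removed Hsd3b1, Lhcgr and Nr5a1. It was also 0 without TMM factors, with DESeq2, with edgeR's other quasi-likelihood estimate and at an adjusted p under 0.05. With no filter beyond a total above 0 it was 7 (background 1.05%), Insl3 included and Fdx1 and Lhcgr not, and 11 of the other pathway genes were called. The errors of that fit were far smaller, as given above for Cyp17a1, and its calls take little account of the spread between the knockout libraries. Leaving out single libraries gave 0 to 6 of the 9 and 0 to 6 other pathway genes in edgeR, and 0 to 3 of the 9 with DESeq2, and the highest counts were all without Tex15-/- replicate 1. Over all genes the count of 0 became 3 at an adjusted p under 0.05, 488 without the filter, 1 with at least 10 counts in every library, 14 with DESeq2 and 2 with the other quasi-likelihood estimate. Single libraries left out gave 0 to 388 calls with edgeR and 7 to 562 with DESeq2. At an unadjusted p under 0.05, edgeR had 987 genes higher and 514 lower. The cause of these differences was not tested.

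Samples of the same replicate number did not deviate together (r of −0.144, −0.041 and −0.009), so that the numbers do not pair the libraries. With the replicate number as a block, 0 genes and 0 of the 9 were called, and the lowest adjusted p among the 9 was 0.0155, for Hsd3b1 and Cyp17a1. The SE of Cyp17a1 was then 0.27, against 0.91 without the block, and that of Hsd3b1 was 0.27, against 0.99.

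With single libraries left out in edgeR, the log2 fold change of Fdx1 ran from −0.31 to 0.70. Of 149 fold changes of the 8 genes tested under the alternatives, 142 were above 0. Those below 0 were Fdx1 without Tex15-/- replicate 2 (−0.31 in edgeR and −0.31 in DESeq2) and, without replicates 2 and 3, Star (−0.13), Cyp11a1 (−0.20), Fdx1 (−0.54), Hsd3b1 (−0.33) and Lhcgr (−0.47). The difference of the summed CPM, 275, was −4.99 without both replicates. It was 267 without TMM factors and 232 without Fdx1 and Scarb1, and single libraries left out gave 81.4 to 415 CPM, the lowest without Tex15-/- replicate 2. The small RNA difference in RPM was −0.48 with 25 to 30 nt reads only, −0.32 with each sequence counted once and −0.84 to −0.23 with single libraries left out. Per 1000000 reads of the gene class, a smaller total and so another scale, the difference was −5.52. With 3 libraries a group, a gene with knockout libraries as far apart as these has a wide error, and the low counts of Insl3, Lhcgr and Nr5a1 in controls limit their fold changes.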
